A study of Mus musculus with 4 samples.

Results

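A choice point, as counted here, is an intron end, a donor or an acceptor, that was joined to more than 1 partner in mouse liver RNA. It was kept where at least 50 junction reads fell on the shared end in each of 4 libraries and where at least 1 of its junctions took between 5% and 95% of those reads in at least 1 library. Of 228997 junctions listed in any library, 3579 met this rule, at 1977 choice points in 1206 genes. Another 12807 shared ends had the reads but no junction within the share limits. The members were thus chosen by the measured read numbers and shares, and every range over the libraries given below is a description with no test.

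The 4 libraries were made from livers of C57/BL6 mice that all carried the ClockΔ19 mutation, the Scg2:tTA driver and the tetO::Clock-HA transgene. All animals drank doxycycline at 30 ug/ml, which keeps a tet-off transgene silent, from 3 days before constant darkness, after a schedule of 12 h of light and 12 h of dark. Livers were taken at circadian times CT22, CT28, CT34 and CT40, so the groups differ in time as far as the labels say, and all of them carry ClockΔ19. The labels do not say whether the Clock copy of the transgene is mutated. Each time is 1 library of polyA RNA pooled from 3 animals, so there is no replicate check, and every comparison is between libraries. The Scg2 promoter is known for its activity in brain.

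Splicing joins the donor at the end of 1 exon to the acceptor at the start of the next. Where an end has more than 1 possible partner, the cell can include or skip an exon, shift an exon's edge by a few bases, begin the transcript at another first exon, or end it at another last exon. In liver such choices set, among others, which tail the HDL receptor SR-BI carries, whether the complement gene Masp2 gives a protease or a short protein, and which RNase is made from a pair of shared promoters.

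The joints of 4 genes are printed first, because their choices rested on more reads than most or changed which protein end is made. Each line is a spliced joint of 15 bases from each exon, 5′ to 3′, and the capitals mark the exon side that differs between the joints of a gene. Sequences come from GENCODE M21 transcripts (GRCm38), matched by gene, intron length and exon lengths, while coordinates are those of the deposited files (mm9, of the intron).
Ang joint, chr14:51716149-51721060, plus strand: agctggccagctttgGAATCTCTGTTGGAA
Rnase4 joint, chr14:51716149-51724481, plus strand: agctggccagctttgGCACTTTCTAGGTAA
Scarb1 inclusion joint, chr5:125761604-125764268, minus strand: caactgcgcagccagGAGAAATGCTTTTTG
Scarb1 skipping joint, chr5:125758236-125764268, minus strand: caactgcgcagccagGGTCCTGAAGACACT
Masp2 short last exon, chr4:147977928-147978364, plus strand: agcacacgtgctcagAGCAGAGCCTCTAAA
Masp2 long route, chr4:147977928-147979688, plus strand: agcacacgtgctcagCCCTTTGTTCAGGCC
Bmp1 nearer acceptor, chr14:70886738-70889826, minus strand: cccacttcttctcagAAAAGAGGCCAGCTC
Bmp1 farther acceptor, chr14:70886080-70889826, minus strand: cccacttcttctcagATAAGGATGAATGTT

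The mutated gene was checked first. ClockΔ19 is known to lose 1 coding exon, and in the deposited annotation a Clock exon of 153 bases lies at chr5:76660421-76660573. The junction that skips it, which no deposited transcript contains, had 28, 31, 44 and 48 reads in time order. The junctions into and out of the exon had 1 read each, at CT28, and 0 in the other libraries. The exon itself had 16, 12, 17 and 26 reads in time order, whose source was not tested. Every library thus carried the skipping form that the genotype label names. The end is no choice point, since the skipping junction had fewer than 50 reads in each library.

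The libraries held 11810932, 14422433, 13945377 and 14943920 junction reads in time order, and each listed 152159 to 161970 junctions. The CT22 library held the fewest junction reads. Read totals inferred from the scale of the exon values were 27539338, 27546324, 24520835 and 26407728 in time order, lowest at CT34. Its junction reads also lay farthest toward the 3′ end, with a median log2 ratio of reads per junction in the 5′ part over the 3′ part of -0.83 over 3853 transcripts, against -0.71, -0.56 and -0.49 in the other libraries. All 8 hepatocyte markers were above 0 in every library, as were all markers of endothelial (6), Kupffer (6), stellate (6) and bile duct cells (5). Summed reads of the endothelial markers, not scaled to library size, ran from 5044 at CT22 to 10497 at CT34. In bulk RNA, a change in the share of a cell type and a change within its cells cannot be told apart.

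Most choices moved little over the 4 libraries. The median range between the highest and the lowest library was 6.28 percentage points (interquartile 4.48 to 10.2), and 1464 choice points (74.1%) stayed under 10 points. These values depend on the membership rule. Of the 1977 choice points, 1129 had a junction with a share between 10% and 90% in at least 1 library. At the others the shares lay near the floor or the ceiling, which left little room for a range. The spread was set against counting error with the variance of the share of the most-read junction over the 4 libraries, divided by the binomial variance of the reads behind it. The median ratio was 1.54, where counting error alone gives a median of 0.789, and 68.7% of choice points had a ratio above 1, where counting error alone gives 39.2%. In percentage points the median observed SD was 2.79 and the SD from counting 2.40. Reads of 1 library share amplification cycles and fragments, so the binomial value is a lower limit on technical spread.

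The excess over counting error was larger at deeper ends. The median ratio was 1.27 for the 710 ends with 50 to 100 mean reads, 1.51 for 100 to 200, 1.94 for 200 to 500, 3.69 for 500 to 1000 and 7.42 for the 64 ends with 1000 reads or more. The ranges ran the other way, from a median of 7.02 points in the shallowest class to 3.87 in the deepest. A ratio above 1 was found at 93.8% of the deepest ends and at 62.7% of the shallowest. In the shallowest class the median observed SD, 3.10 points, was close to the counting SD of 3.00. In the deepest class they were 1.77 and 0.72 points. The counting variance falls with reads, so the same extra spread gives a higher ratio at a deeper end. The ratio is thus no measure of the size of a change.

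**Figure D1:**
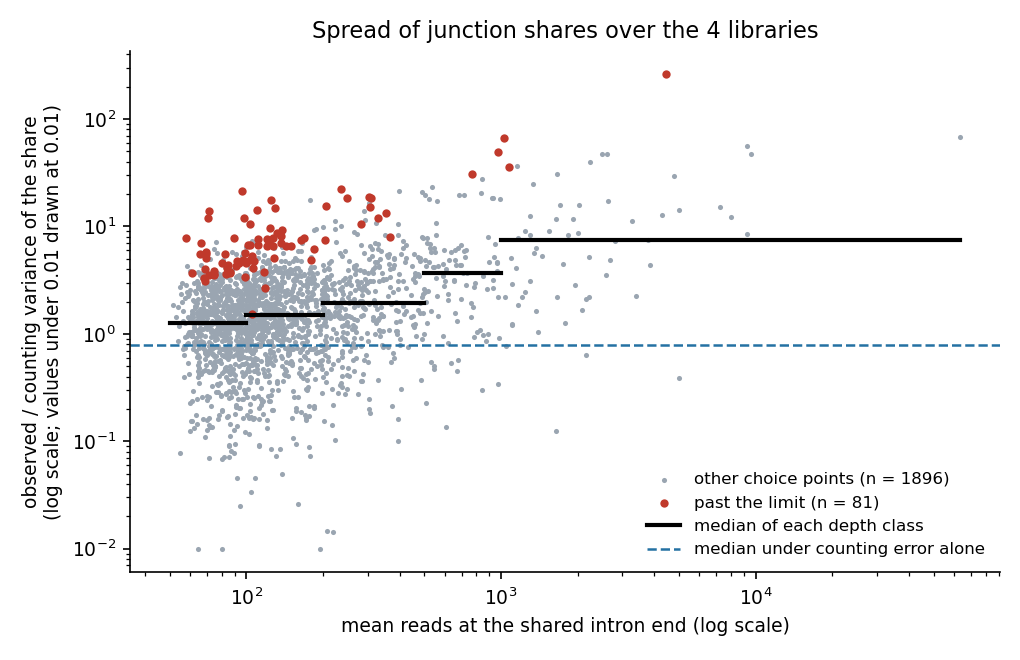
Observed over counting variance of the junction share (vertical, log scale) against the mean reads at the shared end (horizontal, log scale), 1 point per choice point. Black bars are medians of the depth classes, from 1.27 to 7.42, all above the dashed line at 0.789 that counting error alone gives, and red points are the 81 choice points past the limit.

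A choice point was called past the limit where the highest and the lowest library differed by at least 20 points and their exact 95% Clopper-Pearson intervals did not overlap. These intervals cover counting error only. Past the limit were 81 of 1977 choice points (4.1%), in 72 genes or loci, and another 11 reached 20 points with overlapping intervals. All 81 were among the 1129 choice points with a share between 10% and 90% in at least 1 library. Just inside the limit were Slc66a2 (20.2 points), Tmed5 (20.3) and Snrnp70 (20.4), and just outside were Hsd3b3 and Ces3a (both 19.8) and Rpl38 (19.8). The CT22 library held the highest or the lowest share at 64 of the 81 (79.0%) and at 1160 of all 1977 (58.7%). Without it, 27 of the 81 still met the limit over the other 3 libraries. Leaving out CT28, CT34 or CT40 kept 59, 63 or 51 of them.

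Pairs of libraries that include CT22 held more choice points past the limit than the pairs without it. CT22 against CT34 gave 35 choice points past the limit (1.77%), and CT28 against CT40, which is also 12 h apart, gave 18 (0.91%). CT22 against CT28 gave 30 (1.52%) and CT22 against CT40 33 (1.67%). The remaining pairs gave 5 for CT28 against CT34 (0.253%) and 9 for CT34 against CT40 (0.455%). CT22 and CT40 lie 18 h apart and both fall in the subjective night. At 37 of the 81 (45.7%) both lay on the same side of CT28 and CT34, against 748 of all 1977 (37.8%). At 23 of the 81 (28.4%) CT22 stood alone, farther from the other 3 than these were from each other, against 19.8% of all 1977. That was so for CT28 at 3 (3.70%, against 12.7% of all), for CT34 at 7 (8.64%, against 11.99%) and for CT40 at 13 (16.05%, against 13.9%). At 16 of the 81 (19.8%) the share ran in 1 direction through all 4 times, which is also the order of the 3′ tilt, against 184 of all 1977 (9.31%). The pairs share libraries, and the part of junction read number and 3′ reads in the counts that involve CT22 was not tested.

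The largest group of choices was the single skipped exon, or cassette exon, with 870 choice points, of which 30 (3.45%) were past the limit. Alternative acceptors gave 5 of 374 (1.34%) and alternative donors 8 of 237 (3.38%). Alternative first exons gave 8 of 117 (6.84%) and alternative last exons 9 of 59 (15.3%). Several exons skipped together gave 2 of 28 and mutually exclusive exons 1 of 9. The remaining 283, of which 18 (6.36%) were past the limit, could not be classified from the deposited transcripts.

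**Figure D2:**
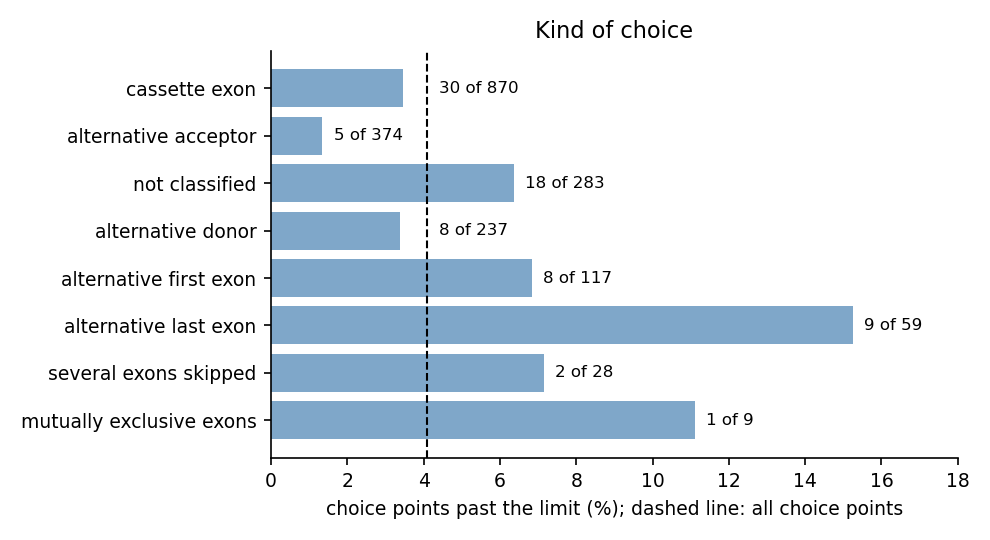
Percent of choice points past the limit (horizontal) for each kind of choice (vertical), with counts beside the bars and a dashed line at 4.1%, the share of all choice points. Alternative last exons reached 15.3% on 59 choice points, and alternative acceptors 1.34% on 374.

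The choice with the most reads among the 81 was between 2 secreted RNases. Ang encodes angiogenin, Rnase4 its neighbour of the same family, and on chromosome 14 they are transcribed from shared first exons that are spliced to 1 gene's coding exon or the other's. From the first exon whose donor lies at 51716149, the share of reads joined to Ang was 45.7% at CT22 (1759 of 3847 reads), 74.1% at CT28 (3541 of 4777), 67.2% at CT34 (2969 of 4421) and 62.7% at CT40 (2927 of 4667). CT22 was lowest, CT28 highest, and no intervals overlapped between those libraries. The observed variance was 260.2 times that of counting, a ratio that rises with the number of reads.

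The other shared first exon, with its donor at 51710929, had far fewer reads and gave the same order of libraries. Its Ang share was 24.1% at CT22 (66 of 274 reads), 61.3% at CT28 (136 of 222), 45.2% at CT34 (98 of 217) and 40.4% at CT40 (91 of 225). These reads are separate from those of the first donor. Exon reads of the Ang coding exon, per kilobase, were 7215, 11639, 9679 and 8263 in time order, and those of the Rnase4 exon 21793, 16735, 14408 and 17760. Exon reads of Ang were highest at CT28 and those of Rnase4 at CT22. They include the junction reads. Without CT22 the range at the deeper donor was 11.4 points, and 20.8 at the other.

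Scarb1 encodes the HDL receptor SR-BI, and skipping of a 129-base exon gives SR-BII, a form with another cytoplasmic tail. At the donor upstream of this exon, at 125764268 on chromosome 5, the joint into the exon took 23.3% at CT22 (176 of 755 reads), 39.7% at CT28 (240 of 605), 44.4% at CT34 (273 of 615) and 28.2% at CT40 (313 of 1111). Inclusion was thus higher at CT28 and CT34 than at CT22 and CT40. The level is unsure, because the exon's 2 sides did not match: the joint out of the exon had 1035, 1001, 1099 and 1386 reads. Against the same skipping reads (579, 364, 342 and 798), that side gave an inclusion of 64.1%, 73.3%, 76.3% and 63.5%, a difference of 12.1 points between CT22 and CT34. CT28 and CT34 were the higher libraries on both sides, but the lowest was CT22 on one and CT40 on the other. Reads in the exon relative to both neighbouring exons, per length, were 0.543, 0.658, 0.662 and 0.563. Without CT22 the range was 16.2 points and without CT34 16.4, and neither passed the limit.

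Masp2 makes MASP-2, the protease of the lectin pathway of complement, and from an earlier last exon MAp19, a short protein without the protease domain. Of the reads at its donor at 147977928 on chromosome 4, the joint to the short last exon took 70.0% at CT22 (701 of 1001 reads), 63.5% at CT28 (752 of 1184), 60.2% at CT34 (561 of 932) and 49.0% at CT40 (574 of 1172). The share was lower at each later time. In exon reads per kilobase, the short last exon stood at 9899, 9196, 7329 and 8272, and the first exon of the long route at 4467, 6604, 6081 and 8995. The order of the libraries is also that of the 3′ tilt of their reads, whose part in a choice between an early and a late exon was not tested. The range was 14.5 points without CT22 and 9.84 without CT40. In Masp1, whose protease belongs to the same pathway, the joint past the nearer last exon to a farther exon took 71.2%, 90%, 84.8% and 86.4%. Its range of 18.8 points did not pass.

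Outside Ang and Masp2, 6 alternative last exons were past the limit, and those in Dnajc19 and Rrbp1 were the widest in genes with a symbol. In Dnajc19, a DnaJ protein of the mitochondrial inner membrane, the nearer exon was the last exon called. The joint past it to the farther exon took 14.8% of 277 reads at CT22 and 36.7% of 98 at CT28. At CT34 this joint took 39.5% of 76 and at CT40 46.4% of 69. The donor itself had more reads at CT22 than in any other library. In Rrbp1, a ribosome-binding protein of the endoplasmic reticulum, the joint past the nearer last exon took 40.4%, 60.3%, 63.8% and 67.9%. In both genes CT22 was the lowest. Without CT22 the ranges were 9.64 points for Dnajc19 and 7.55 for Rrbp1.

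Among alternative first exons the widest was in Fermt2, which encodes kindlin-2, an activator of integrins. Of 3 exons joined to its acceptor, the farthest took 65.6% at CT22 (107 of 163 reads) and 35.5% at CT28 (107 of 301). It took 42.4% at CT34 (125 of 295) and 25.5% at CT40 (121 of 474). Its own reads stayed between 107 and 125, while the middle exon had 36, 145, 106 and 249 and the nearest 19, 48, 64 and 103. The share was thus lower where the other exons had more reads. The middle exon begins a deposited transcript, and whether the others do was not checked. Without CT22 the range was 16.8 points.

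Pik3r1 gives the regulatory subunits p85α, p55α and p50α of PI 3-kinase from separate first exons. Its nearer first exon took 34.2% of 79 reads at CT22, then 5.68%, 6.67% and 5.36%, a range of 1.31 points without CT22.

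In Uqcr10, a subunit of respiratory complex III, the joint to the exon beyond the nearer first exon took 40.4% of 161 reads at CT22. It took 68.9% of 225 at CT28, 61.3% of 217 at CT34 and 43.4% of 219 at CT40. CT22 and CT40 lay together, below CT28 and CT34, and the range without CT22 was still 25.5 points. Exon reads per kilobase were 4966, 7579, 6697 and 5393 for the farther exon in time order. For the nearer one they were only 1360, 1116, 1279 and 1651, so level and size of the share are unsure.

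Skipped exons gave the widest range of all. Atp13a3, a P-type ATPase that carries polyamines, skipped a 90-base coding exon in 67.2% of 58 reads at CT22, 80.8% of 73 at CT28, 57.1% of 70 at CT34 and 31.8% of 85 at CT40, seen at the acceptor at 30315988 on chromosome 16. At the donor on the other side skipping took 44.3%, 50.9%, 72.7% and 38.0%. CT40 was lowest on both sides, but the highest library was CT28 on one and CT34 on the other. Reads into the exon were 49, 57, 15 and 44 and reads out of it 19, 14, 30 and 58, so the exact size is unsure.

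The shortest skipped exon past the limit was in Mtss1, which encodes a membrane-bending protein that binds actin. Its 12 bases were included in 55.7% of 61 reads at CT22, 46.5% of 127 at CT28, 39.3% of 112 at CT34 and 23.1% of 104 at CT40, at the acceptor downstream. At the donor upstream skipping was 52.9%, 59.3%, 61.8% and 79.0%, so both sides gave the same order. Without CT40 the range at the acceptor was 16.5 points. The Atp13a3 and Mtss1 exons are printed whole, since both add a multiple of 3 bases, beside a 42-base exon of Cbs that is described with the metabolic enzymes.
Mtss1 exon, chr15:58796052-58796063, minus strand: tggacgctcagg
Cbs exon, chr17:31751474-31751515, minus strand: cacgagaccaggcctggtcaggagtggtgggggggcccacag
Atp13a3 exon, chr16:30321892-30321981, minus strand: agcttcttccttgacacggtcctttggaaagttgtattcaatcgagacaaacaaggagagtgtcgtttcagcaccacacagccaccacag

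App, the amyloid precursor protein, skipped a 57-base exon in 28% of 50 reads at CT22, 13.1% of 99 at CT28, 16.8% of 167 at CT34 and 37.0% of 211 at CT40. Its sides carried like reads (35, 83, 136 and 130 against 33, 84, 128 and 139). CT28 and CT34 lay below CT22 and CT40, and without CT40 the range was 14.87 points. Macf1, a linker of actin and microtubules, skipped a 102-base exon in 81.1%, 48.6%, 65.6% and 63.8% of 58 to 74 reads, and left the limit without CT22 or CT28 (17.0 and 17.3 points). On the other side of the Macf1 exon inclusion was 47.4%, 53.4%, 50.6% and 60.2%, a difference of 6.06 points between CT22 and CT28, with CT40 highest, so the size is unsure. Irf7, a transcription factor of the interferon response, included a 93-base exon in 68.1% of 116 reads at CT22 and 91.6%, 95.4% and 89.7% afterwards, with a range of 5.70 points among the later 3. Tmem176b included a 93-base exon that is not wholly coding in 31.0%, 61.1%, 47.9% and 54.0%, again with CT22 lowest and with a range of 13.2 points without it. Between CT22 and CT28 the other side of the Tmem176b exon differed by 9.49 points.

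Dnm2, the dynamin that cuts vesicles from membranes, uses 1 of a pair of 139-base exons. The share of the exon nearer to the shared acceptor at 21285776 on chromosome 9 was 47.3% at CT22 (26 of 55 reads), 39.8% at CT28 (35 of 88), 30.1% at CT34 (28 of 93) and 22% at CT40 (33 of 150). It was lower at each later time. Exon reads went from 41 to 62 for the nearer exon between CT22 and CT40 and from 64 to 169 for the farther one. The range was 17.8 points without CT22 and 17.2 without CT40. Zc3h14, a poly(A)-binding zinc finger protein, skipped 2 exons together in 43.5%, 24.2%, 29.0% and 14.1% of 62 to 85 reads, and left the limit without CT22 or CT40 (14.97 and 19.3 points).

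**Figure D3:**
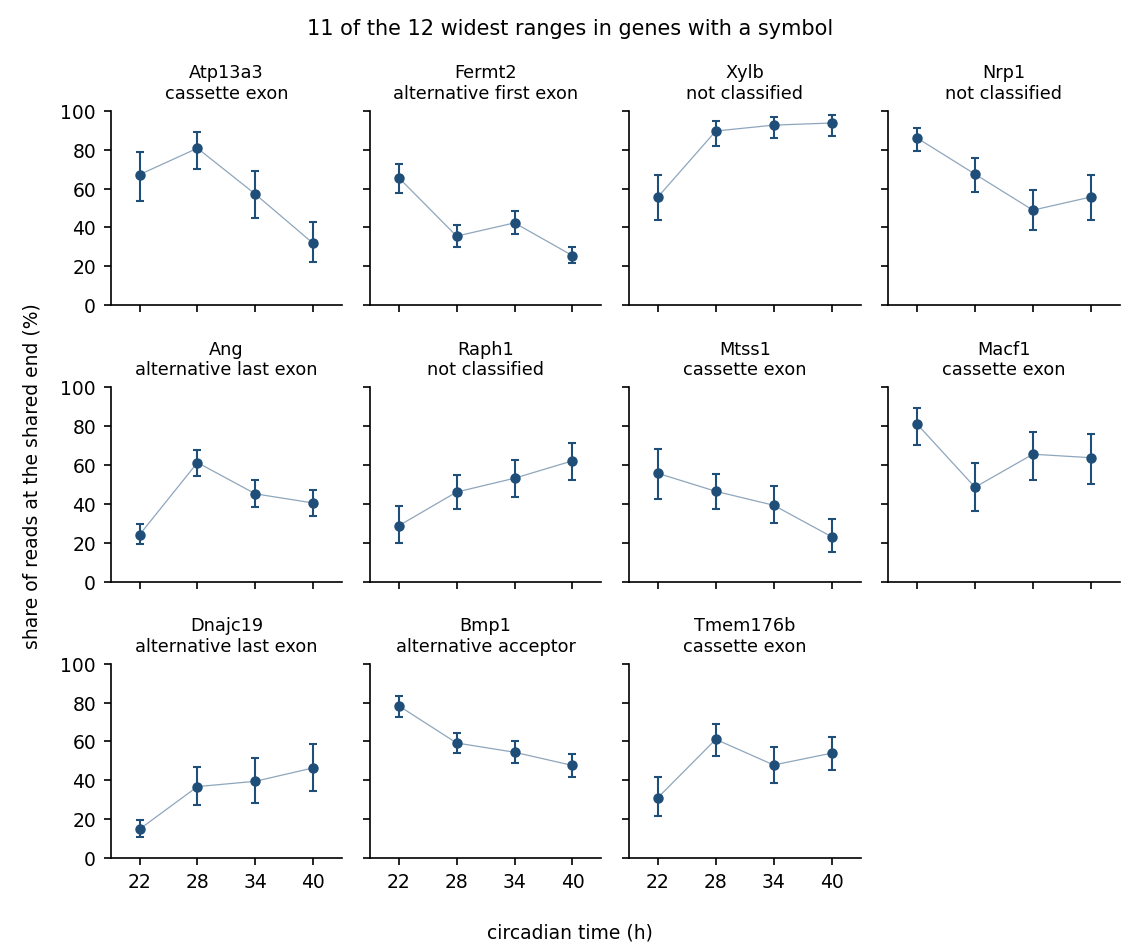
Share of reads of the widest junction (vertical, percent) against circadian time (horizontal, hours) for 11 of the 12 genes with a symbol that had the widest ranges, with exact 95% intervals from counting. In Atp13a3 the share ran from 80.8% at CT28 to 31.8% at CT40, while in Fermt2, Xylb and Dnajc19 CT22 stood apart from the later times.

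The 30 choice points at single skipped exons lay at 26 exons. Of these exons 20 (76.9%, exact interval 56.4% to 91.0%) had a length that is a multiple of 3, which keeps the reading frame where the exon is coding. Over all 591 skipped exons it was 301 (50.9%, 46.8% to 55.0%). The past exons were 12 to 230 bases long, with a median of 91.5, against 102 over all. The smaller set is contained in the larger and was chosen by its range, so the intervals cannot be set against each other. The difference was not tested.

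The far side of each exon gives a further inclusion share. At 8 of the 30, both sides of the exons in Mtss1, Atp13a3, Slc66a2 and Cyp3a25, the far side was itself chosen as past the limit. At the other 22 the far side differed in the same direction in all, by a median of 13.4 points, and over all 870 choice points at single skipped exons it did so at 745 (85.6%), by a median of 3.88 points. The skipping reads are the same on both sides, which pulls both shares 1 way, so these counts are a description only. In 12 of the 22, Scarb1 and Hnrnph1 among them, the reads on the sides differed by more than 2-fold. Reads of the exon itself, per length and relative to both flanking exons, were higher in the library with more inclusion at all 28 choice points with values (25 exons), and at 552 of 724 (76.2%) over all skipped exons. The median log2 ratio between those libraries was 0.37 for the 28 and 0.13 for the 724. Exon reads include the junction reads by which the exons and the libraries were chosen. The exon counts are thus no separate check and a description only.

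**Figure D4:**
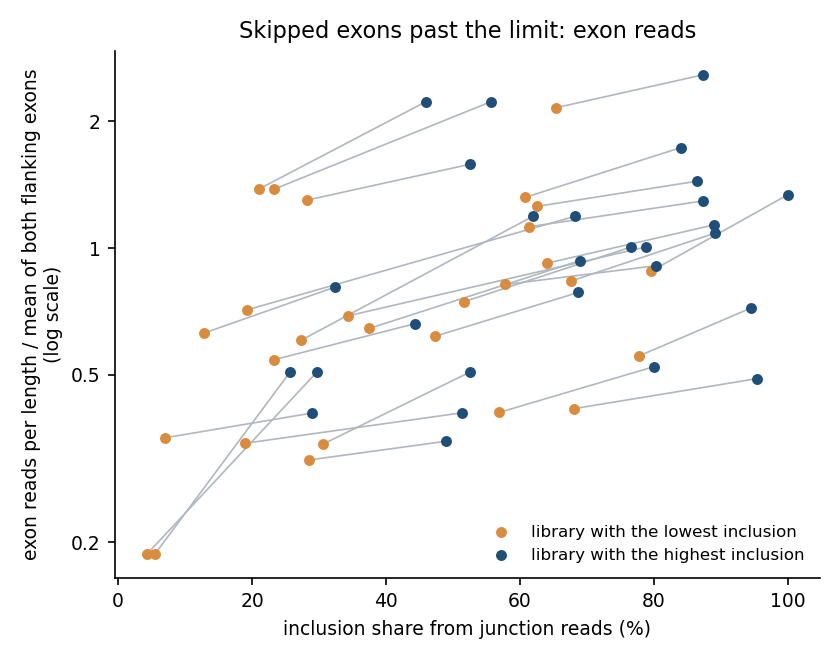
Reads of the skipped exon per length over the mean of its flanking exons (vertical, log scale) against its inclusion share from junction reads (horizontal, percent), with a line from the library with the lowest to that with the highest inclusion. All 28 lines slope upward. Exon reads include those that span its junctions, by which the exons and the libraries were chosen.

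Among alternative acceptors, of which 1.34% were past the limit, the widest was in Bmp1, a procollagen C-proteinase gene known for a short and a long product. The nearer of its acceptors took 78.4% of 245 reads at CT22, 59.2% of 353 at CT28, 54.4% of 316 at CT34 and 47.6% of 296 at CT40. A second Bmp1 choice, between acceptors 37 bases apart at the donor at 70908262, gave 33.3%, 21.9%, 17.4% and 8.90% for the nearer one. Both shares were lower at each later time. Without CT22 the range of the first was 11.6 points.

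Prkd3, a protein kinase D, used its farther acceptor in 41.8%, 42.96%, 63.6% and 45.3% of 122 to 214 reads, so CT34 alone was high (range without it 3.52 points). Among alternative donors, Sqstm1, the autophagy receptor p62, used the farther one, 114 bases upstream, in 56.6% of 205 reads at CT22, 34.1% of 279 at CT28, 37.8% of 286 at CT34 and 48.2% of 361 at CT40. CT22 and CT40 lay above CT28 and CT34. Without CT22 the range was 14.1 points and without CT28 18.8, and neither passed the limit.

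The commonest close choice was between acceptors 3 bases apart, which adds or removes 1 amino acid in coding sequence. There were 130 such points, 34.8% of alternative acceptors, and 0 were past the limit. Their median range was 6.46 points, the widest 19.1, and their median ratio of observed to counting variance 1.09, against 1.37 for the 185 acceptors more than 12 bases apart. Eif4g1, the scaffold of the translation initiation complex, shows the letters of such a choice.
Eif4g1 nearer acceptor, chr16:20681652-20681806, plus strand: ctgccccgagggccgCAGGCTGGCCTGGGA
Eif4g1 farther acceptor, chr16:20681652-20681809, plus strand: ctgccccgagggccgGCTGGCCTGGGACCC
The farther one, which leaves out the leading CAG, took 74.5% of 110 reads at CT22, 82.5% of 160 at CT28, 79.6% of 235 at CT34 and 69.1% of 217 at CT40. Clock itself has such a pair, at the donor at 76659189 on chromosome 5. Its nearer acceptor took 46.8% of 62 reads at CT22, 57.1% of 77 at CT28, 53.8% of 80 at CT34 and 60.2% of 98 at CT40. The variance of the Clock shares was 0.986 times that of counting, so at this depth the libraries could not be told apart. It was the single choice point among 25 core clock genes.

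Over the 6 gene lists the share past the limit ran from 0 to 7.41%, beside the 4.1% of all choice points. Splicing regulators held 62 choice points in 26 of 72 listed genes, with 2 past the limit (3.23%) and a median range of 7.86 points against 6.28 over all. Hnrnph1, a binder of G-rich RNA, included a 139-base coding exon in 56.9% of 58 reads at CT22, 80.0% of 110 at CT28, 68.2% of 66 at CT34 and 74.5% of 51 at CT40. On the other side of the Hnrnph1 exon inclusion was 79.8%, 87.9%, 84.5% and 87.7%, a difference of 8.07 points between CT22 and CT28, so level and size are unsure. Snrnp70, the U1-70K protein that helps recognise donors, was the other one past the limit, with 66.2%, 86.6%, 78.7% and 80.8% for its annotated junction against an unannotated one at the same acceptor. In both CT22 was lowest. Luc7l2, a U1-associated protein, ranged by 22.8 points and Sf1, which binds the branch point, by 20.9, but their intervals overlapped. Without CT22 the Hnrnph1 range was 11.82 points and without CT28 17.6.

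Liver genes with known isoforms held 78 choice points in 29 of 61 genes, with 5 past the limit (6.41%): App, Dnm2, Macf1, Myo18a and Scarb1. In Myo18a, a myosin of the Golgi and cytoskeleton, a 45-base exon was included in 52.6% of 97 reads at CT22 and 32.5%, 30.6% and 31.8% later. Plasma protein and apolipoprotein genes held 45 in 30 of 78 genes, with 2 past it (4.44%), Masp2 and Apoe. The Apoe choice lay between unannotated junctions with 56 to 129 reads at the shared end, and the nearer acceptor took 58.9%, 86.8%, 62.4% and 74.7%. A 66-base Apoe exon at the farther junction had 120502 to 195400 reads, so this choice concerns a very small part of Apoe reads. The Apoe range was 15.8 points without CT28. Chaperone, ribosomal and translation genes held 19 in 11 of 31 genes, with 0 past it and Eif4h the widest at 15.6 points.

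Metabolic enzymes held 27 choice points in 17 of 76 genes, with 2 past the limit (7.41%). Asl, the argininosuccinate lyase of the urea cycle, used the nearer of 2 donors 86 bases apart in 58.0% of 169 reads at CT22, 76.8% of 185 at CT28, 60.7% of 145 at CT34 and 54.1% of 159 at CT40. CT28 alone was high, and without it the range was 6.602 points. Without CT40 it was 18.8 points. Fdps, the farnesyl diphosphate synthase of the mevalonate route, used its annotated far donor in 44.0%, 28.3%, 37.8% and 20.8%, against an unannotated one. Without CT22 or CT40 it did not pass (17.0 and 15.8 points).

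Cbs, the cystathionine beta-synthase of the transsulfuration route, had far more reads and a smaller range. Its 42-base exon was included in 52.9% of 1371 reads at CT22, 38.3% of 2743 at CT28, 44.0% of 3255 at CT34 and 35.2% of 3094 at CT40. The range of 17.7 points was under the limit, while the observed variance was 47.4 times that of counting, a ratio that rises with reads. CT22 was highest and CT40 lowest.

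**Figure D5:**
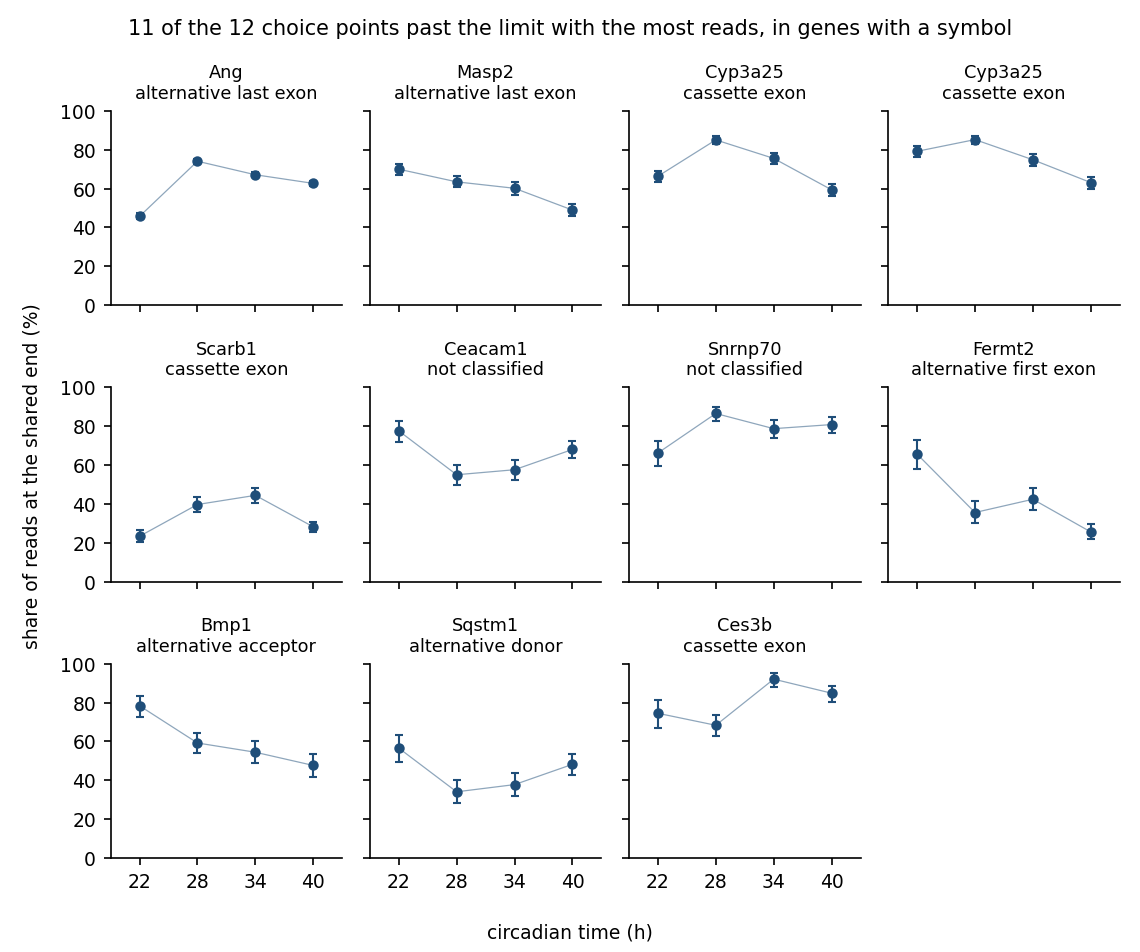
Share of reads of the widest junction (vertical, percent) against circadian time (horizontal, hours) for 11 of the 12 choice points past the limit with the most reads, in genes with a symbol, with exact 95% intervals from counting. Ang, Scarb1 and Snrnp70 were lowest at CT22, Masp2, Bmp1 and Fermt2 were highest there, and the 2 Cyp3a25 panels are both sides of 1 exon.

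Several wide choices used junctions that the deposited transcripts do not contain. Both compared junctions were annotated at 1085 choice points (54.9%) and at 56 of the 81 past the limit (69.1%). Nrp1, a coreceptor of semaphorins and VEGF, joined 1 donor to an unannotated acceptor in 86.1% of 144 reads at CT22, 67.5% of 123 at CT28, 48.9% of 94 at CT34 and 55.7% of 79 at CT40. Nrp1 is expressed in endothelium, whose summed marker reads were lowest in the library with the highest share. Of these markers Kdr, Cdh5, Pecam1 and Oit3 were lowest at CT22, Stab2 at CT28 and Clec4g at CT40. Summed reads of hepatocyte, stellate and bile duct markers were lowest at CT22 too, and those of Kupffer cells at CT28. The part of cell types in the Nrp1 share was not tested. Xylb, which encodes xylulokinase, used its annotated junction in 55.7% of 79 reads at CT22 and 89.7%, 92.7% and 93.8% later, a range of 4.12 points without CT22. In Raph1, the actin regulator lamellipodin, an unannotated acceptor took 28.7%, 46.1%, 53.2% and 62.2% of 94 to 128 reads, higher at each later time. Without CT22 the Nrp1 range was 18.5 points and the Raph1 range 16.1.

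Members of gene families with near-identical copies are uncertain, because reads may be split between copies. Cyp3a25, a cytochrome P450 of a clustered family, skipped an unannotated 152-base exon in 66.4% of 1086 reads at CT22, 85.1% of 1122 at CT28, 75.6% of 848 at CT34 and 59.4% of 1064 at CT40. The other side of that exon gave 79.2%, 85.3%, 74.9% and 63.1%. CT28 was highest and CT40 lowest on both sides, and without either library the ranges fell under 20 points. H2-Q7, a class I histocompatibility gene, Cyp2a22, Cyp2c54, Ces3b and Ceacam1 carry the same caution. In H2-Q7 an unannotated junction took 57.1%, 32.7%, 27.6% and 49.4% of 98 to 180 reads.

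6 choice points past the limit lay in loci without a symbol. The widest, at the donor at 137902452 on chromosome 3, included a 183-base exon in 34.4% of 93 reads at CT22, 78.9% of 180 at CT28, 64.3% of 115 at CT34 and 60.9% of 110 at CT40. CT22 was the lowest by far, and without it the range was 17.98 points. The exon's sides did not match, with 32, 142, 74 and 67 reads on this side and 15, 26, 21 and 21 on the other. The other side gave an inclusion of 19.7%, 40.6%, 33.9% and 32.8%, so level and size are unsure. The next choice point, at 152988656 on chromosome 1, gave 74.2%, 71.4%, 75% and 37.3% of 51 to 63 reads for an unannotated junction. There CT40 alone was low, and without it the range was 3.57 points.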

How the data were processed

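Each of 4 mouse liver libraries came with a junction list and a feature table. Junctions were found with RUM, per the file headers, and the deposited counts are reads per junction (column 5). Coordinates are mm9, a build named in the submitters' processing notes. The version of RUM is not given in the sources used here. Deposited feature values name no unit. Each value was multiplied by feature length and divided by a step fitted per library to these same values. Whole reads resulted for 100.000% of exon values tested (tolerance 0.05 read), all from shorter exons with fewer reads. Since the step was fitted to the values, this is no independent check. The results were used as reads per exon.

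Intron ends were found by removing the 50-base flanks. A junction not listed in a library counted as 0. The strand column of the junction lists holds 1 value throughout, so strand and kind came from the 115699 deposited transcripts, of which 26552 got a symbol through RefSeq and 53759 through Vega only. Reads of overlapping genes with opposite strands cannot be separated. An alternative first or last exon was called where the nearer exon begins or ends a deposited transcript. Whether the farther exon does so was not checked. Shares have exact Clopper-Pearson 95% intervals, which cover counting error only. With 1 library per time there is no test. Both joints could be matched to GENCODE M21 for 26 of 49 named choice points.

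Named were the 25 widest past the limit (1 per gene), up to 3 widest of each gene list, up to 3 most-read past the limit of each kind, and Clock. Some that were named are given by counts only, some are not reported here, and other members were singled out after their values were seen: Slc66a2, Tmed5, Snrnp70, Hsd3b3, Ces3a and Rpl38 for their place at the limit, Myo18a and Snrnp70 as list members past it, the second Bmp1 choice for its gene, and Cyp2c54, Ces3b and Ceacam1 for their gene families. The members and lists were chosen with earlier results of these data known. Calls and spread were tested on simulated reads with counting error alone. That checked the computation and cannot vouch for calls in these data, whose spread was wider. Alternatives covered read minimum, share limits, size of change, intervals, annotation and each library left out. Python 3.11.15, numpy 2.4.6, pandas 2.3.3 and scipy 1.17.1 were used.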

Additional observations from a re-analysis of the deposited data

How the results depend on the processing

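Counts of choice points past the limit depended on depth, on the limit and on the CT22 library. Over the 4 libraries the count was 81. It was 184 with a minimum of 20 reads, 24 with 100 reads, 53 with annotated junctions only, 229 with a limit of 10 points and 17 with 30 points. Leaving out 1 library gave 40 (without CT22) to 65 (without CT34). For CT22 against CT34 the count of 35 became 57, 13, 21, 98 and 2 under those 5 settings in that order, and 35 to 37 with another library left out. For CT28 against CT40 the count of 18 became 52, 6, 11, 82 and 2, with 8 under 99% intervals, 10 with reads divided by the median variance ratio, and 20 to 29 with another library left out. Leaving a library out also changes which ends have enough reads. The remaining settings kept these counts within 1.5 times. The median ratio of 1.54 was 1.34 with 20 reads, 2.02 with 100 reads, 1.79 with shares of 10% to 90%, 1.47 with junctions listed in all 4 libraries, and 1.30 to 1.61 with 1 library left out, where counting error alone gives 0.693 over 3 libraries. Of the 41 named choice points past the limit, 26 left the limit without CT22, 15 without CT40, 8 without CT28 and 4 without CT34. The causes were not tested. No paired analysis was possible because each time has 1 library.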
